A study of Homo sapiens with 24 samples.

Results

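Aminoacyl-tRNA synthetases join each amino acid to its tRNA, and most amino acids have a cytosolic enzyme and a separate mitochondrial one, both encoded in the nucleus. The members described here were all genes whose symbol in the annotation of the array's probes matched a rule for synthetase symbols. They also had to be detected, at a detection p-value under 0.05, on 2 or more of 24 arrays. The rule matched 39 probes, of which 38 passed the detection filter. They measured 34 genes, 18 cytosolic (21 probes) and 16 mitochondrial (17 probes), of 12908 genes tested in the series. A further FARSB probe, detected on 1 array, did not pass. The suffix 2 marks the mitochondrial class. GARS1 and KARS1 were counted as cytosolic, although each gene encodes the enzyme of both compartments. FARSA and FARSB encode the 2 subunits of one enzyme, and EPRS1 encodes a single protein that charges the tRNAs of both glutamate and proline.

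RNA came from BL-41, a Burkitt lymphoma cell line, and from SU-DHL-4 and Oci-Ly-2, 2 cell lines of diffuse large B-cell lymphoma. Runs of 3 values below follow the order BL-41, then SU-DHL-4, then Oci-Ly-2. Illumina HumanHT-12 v4 BeadChips measured each line after 12 h with 5 μM artesunate, a derivative of the antimalarial artemisinin, against a 12 h control, and after 4 h with 5 μM artesunate, against a 0 h control. Every one of the 12 groups had 2 arrays, numbered replicate 1 and replicate 3, which are technical replicates, so p-values speak of spread among arrays, not among cultures. The labels call the controls untreated, whereas the study's text speaks of vehicle in its results and of an untreated sample in a supplementary caption. The labels give no control at 4 h, so at 4 h artesunate and time in culture cannot be told apart. Between 16156 and 18171 of 47319 probes were detected per array, and 34 to 38 of the member probes. Of 7 B-cell markers, 6 were detected on all 8 arrays of every cell line, and PAX5 on none. Of 11 markers of other cells, SDC1 was detected on 7 or 8 of 8 arrays of every cell line (mean log2 signal 6.85, 5.98 and 5.10), as was LYZ (5.17, 5.16 and 5.15), and CD14 on 2 or 3. CD3D, CD3E and CSF1R were detected on no array, and the other 5 on at most 1 array of a cell line.

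As background, cells that are short of amino acids or that carry a load of misfolded protein in the endoplasmic reticulum make the transcription factor ATF4, which pairs with C/EBP proteins at sites known as C/EBP-ATF response elements. Genes of cytosolic synthetases are among its known targets. Cytosolic synthetases are also divided into class I and class II by the fold of their catalytic domain, and some of them are held together in the multisynthetase complex.

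After 12 h of artesunate, RNA of a subset of the cytosolic synthetases was higher in each cell line, and no mitochondrial synthetase was called. Calls required a log2 fold change beyond 0.5 in either direction together with limma's adjusted p below 0.01, adjusted over all 25017 probes tested. Of 18 cytosolic genes, 5 rose in BL-41, against 1.32% of all genes that rose there. In SU-DHL-4, 4 of 18 rose, against 0.806% of all genes. In Oci-Ly-2, 5 of 18 rose, against 2.38% of all genes. WARS1, AARS1, GARS1 and SARS1 rose in all 3 cell lines, YARS1 rose in BL-41, and MARS1 rose in Oci-Ly-2. No cytosolic gene fell (0.666%, 0.449% and 1.83% of all genes did).

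The 18 cytosolic genes had median log2 fold changes of 0.43, 0.45 and 0.50. Those of the 16 mitochondrial genes were 0.04, 0.04 and −0.05, and those of all genes 0.015, 0.015 and 0.027. Of the cytosolic genes, 14 had a value above 0 in all 3 cell lines, as did 6 of the mitochondrial genes and 26.2% of all genes. None of the 16 mitochondrial genes was called by limma in any cell line, where 1.98%, 1.26% and 4.21% of all genes were called in either direction. An unadjusted p under 0.05 was found for 2, 3 and 5 of them, and for 12 of the 18 cytosolic genes in each cell line, where 15.5%, 16.7% and 21.9% of all genes had one. In SU-DHL-4, 1 of those 12 was negative, RARS1, and in the other cell lines all 12 were positive. The classes also differed in brightness. Mean log2 signals of the brightest probes ran from 4.71 (WARS2) to 9.13 (YARS2) in the mitochondrial class. They ran from 7.81 (FARSA) to 13.33 (FARSB) in the cytosolic class. WARS2 was detected on no 12 h array of SU-DHL-4 or Oci-Ly-2, so its values there are not measured changes. Whether brightness bears on the contrast was not tested.

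**Figure D1:**
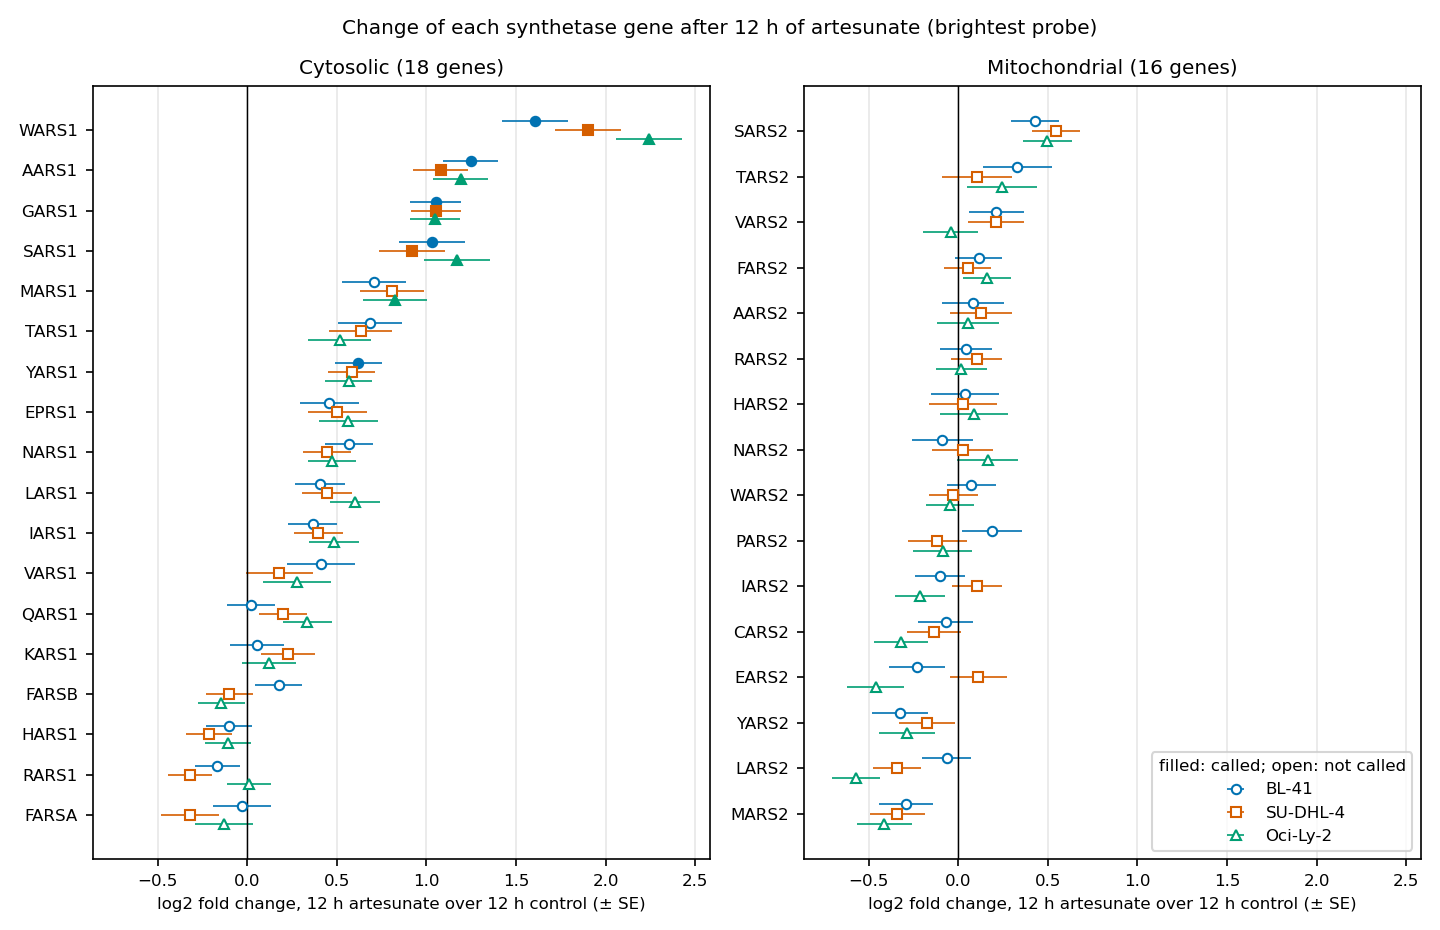
Log2 fold change of each synthetase gene, 12 h artesunate over 12 h control, on the horizontal axis (points, brightest probe of the gene; bars, ± SE from limma), for cytosolic genes on the left and mitochondrial genes on the right, with 1 symbol per cell line. WARS1 lies at 1.61, 1.90 and 2.24, whereas no mitochondrial gene lies above 0.55.

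WARS1, the tryptophanyl-tRNA synthetase and a class I enzyme whose gene is also known to be induced by interferon, had the largest change of the members. In BL-41 its log2 signals were 10.32 and 10.38 with artesunate and 8.83 and 8.65 in the controls (log2 fold change 1.61, SE 0.18, adjusted p = 1.79e-05 from limma). In SU-DHL-4 they were 9.70 and 10.30 with artesunate and 7.96 and 8.24 in the controls (1.90, SE 0.18, adjusted p = 4.72e-06). In Oci-Ly-2 they were 10.97 and 11.36 with artesunate and 8.98 and 8.87 in the controls (2.24, SE 0.18, adjusted p = 3.05e-07). The artesunate arrays thus lay above the control arrays with no overlap in any cell line. Overlap, here and below, only describes 2 arrays on each side, and its share among all genes is not given. A dimmer WARS1 probe was called in all 3 cell lines as well, with log2 fold changes between 1.78 and 2.22. WARS1 kept its call in every fit that left out 1 of the 4 arrays of a comparison, although its brighter probe lost the call in a fit of SU-DHL-4 alone (adjusted p = 0.014).

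AARS1, the alanyl-tRNA synthetase, is a class II enzyme outside the multisynthetase complex. Its log2 signals were 12.45 and 12.33 with artesunate and 11.03 and 11.25 in the controls of BL-41. In SU-DHL-4 they were 11.18 and 11.38 with artesunate and 10.06 and 10.35 in the controls, and in Oci-Ly-2 12.13 and 12.18 with artesunate and 10.89 and 11.03 in the controls. The groups did not overlap, and the log2 fold changes were 1.25, 1.08 and 1.19 (SE 0.15; adjusted p = 4.14e-05, 0.000428 and 6.89e-05 from limma). In SU-DHL-4 the call was lost without control replicate 1 (0.93, adjusted p = 0.0115) or without artesunate replicate 3 (0.98, adjusted p = 0.0179).

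GARS1, the glycyl-tRNA synthetase of both compartments, had almost the same change everywhere. In BL-41 its log2 signals were 12.67 and 12.56 with artesunate and 11.56 and 11.56 in the controls. In SU-DHL-4 they were 12.32 and 12.56 with artesunate and 11.32 and 11.45 in the controls. In Oci-Ly-2 they were 13.02 and 13.06 with artesunate and 12.03 and 11.95 in the controls. No artesunate array overlapped a control array, and the log2 fold change was 1.05 in each cell line (SE 0.14; adjusted p = 0.000125, 0.000229 and 0.000111 from limma). In SU-DHL-4 the call was lost without artesunate replicate 3 (0.94, adjusted p = 0.0118). KARS1, the lysyl-tRNA synthetase and the other gene that serves both compartments, had 0.05, 0.23 and 0.12 and was not called.

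SARS1, the seryl-tRNA synthetase, had log2 signals of 9.59 and 9.53 with artesunate and 8.50 and 8.56 in the controls of BL-41. In SU-DHL-4 they were 8.91 and 9.20 with artesunate and 8.03 and 8.25 in the controls, and in Oci-Ly-2 9.54 and 9.85 with artesunate and 8.53 and 8.52 in the controls. The groups did not overlap in any cell line, with log2 fold changes of 1.03, 0.92 and 1.17 (SE 0.18; adjusted p = 0.00243, 0.00875 and 0.000516 from limma). The call depended on having every array: in BL-41 and SU-DHL-4 none of the 4 fits that left out 1 array called it (adjusted p = 0.0246 to 0.0345 and 0.0168 to 0.12), and in Oci-Ly-2 it was not called without artesunate replicate 3 (1.02, adjusted p = 0.0201).

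MARS1, the cytosolic methionyl-tRNA synthetase, supplies the amino acid that starts proteins made in the cytosol. It was the single member of the multisynthetase complex to be called. In Oci-Ly-2 its log2 signals were 9.55 and 10.03 with artesunate and 8.91 and 9.02 in the controls (0.82, SE 0.18, adjusted p = 0.00685 from limma). In BL-41 they were 10.01 and 9.94 with artesunate and 9.18 and 9.37 in the controls (0.71, adjusted p = 0.0315), and SU-DHL-4 had 9.66 and 10.04 with artesunate and 8.97 and 9.13 in the controls (0.81, adjusted p = 0.0163). The groups did not overlap there either, although neither value was called. In Oci-Ly-2 the call was lost without control replicate 1 (0.77), without control replicate 3 (0.88) and without artesunate replicate 3 (0.58).

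YARS1, the tyrosyl-tRNA synthetase, was called in BL-41, at log2 signals of 11.33 and 11.26 with artesunate and 10.73 and 10.63 in the controls (0.62, SE 0.13, adjusted p = 0.00961 from limma). This call was at the edge of the threshold and none of the 4 fits without 1 array repeated it (0.57 to 0.66, adjusted p = 0.05 to 0.106). SU-DHL-4 had 10.83 and 10.97 with artesunate and 10.33 and 10.30 in the controls (0.58, adjusted p = 0.0185). Oci-Ly-2 had 11.19 and 11.41 with artesunate and 10.66 and 10.81 in the controls (0.57, adjusted p = 0.0111). The groups did not overlap in any cell line.

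**Figure D2:**
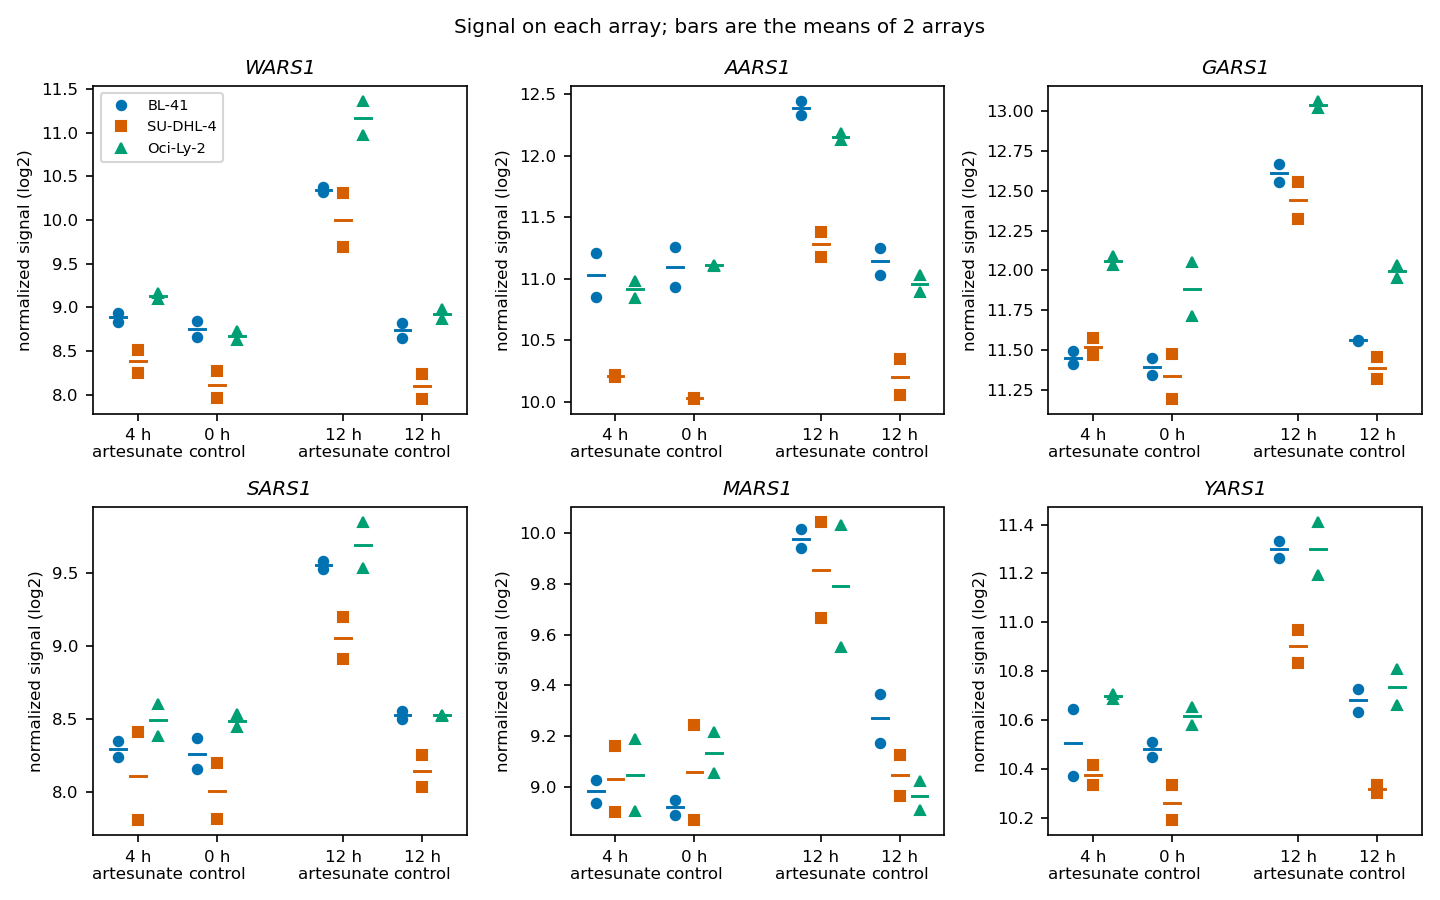
Normalized log2 signal of the 6 called synthetase genes on each array (points) and the mean of 2 arrays (bars), by cell line, with each artesunate group left of its control; each panel has its own vertical range. WARS1, AARS1, GARS1 and SARS1 have all artesunate arrays at 12 h above all 12 h control arrays of the same cell line, while the 4 h artesunate arrays lie near the 0 h controls.

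The remaining cytosolic members were called in no single cell line and are grouped here by mean log2 fold change over the 3 cell lines. Single cell lines do not always follow this grouping: in Oci-Ly-2, QARS1 had 0.34 and VARS1 0.28. TARS1, EPRS1, NARS1, LARS1, IARS1 and VARS1, which charge threonine, glutamate with proline, asparagine, leucine, isoleucine and valine, had mean log2 fold changes over the 3 cell lines between 0.29 (VARS1) and 0.61 (TARS1). VARS1 had 0.41, 0.18 and 0.28 by a probe detected on all 24 arrays. A further VARS1 probe, detected on 7 of the 24 arrays, lay close to background, with a mean of the opposite sign over the 3 cell lines (−0.28). It was detected on no 12 h array of SU-DHL-4, so that mean is not a measured change in every cell line. QARS1, KARS1, FARSB, HARS1, RARS1 and FARSA, the enzymes for glutamine, lysine, phenylalanine, histidine and arginine, had means between −0.16 and 0.19. Both subunits of the phenylalanine enzyme were in this second set, at −0.03, −0.32 and −0.13 for FARSA and 0.17, −0.10 and −0.14 for FARSB.

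By structure, class I genes (8 measured) had medians of 0.41, 0.42 and 0.52, and class II genes (9 measured) 0.57, 0.45 and 0.47, and called genes were found in both. EPRS1, with a domain of each class, was counted in neither. Members of the multisynthetase complex (7 measured) had medians of 0.37, 0.40 and 0.48, with 0, 0 and 1 called. Cytosolic members outside it (11 measured) had medians of 0.62, 0.58 and 0.51, with 5, 4 and 4 called. Whether the complex and the other members differ was not tested.

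With the cell line as the replicate, using limma on the means of the 6 groups at 12 h, 7 of the 34 genes rose, against 1.39% of all genes. These were WARS1 (1.92, SE 0.13, adjusted p = 0.000212), AARS1 (1.17, adjusted p = 0.000634), GARS1 (1.05, adjusted p = 0.000909), SARS1 (1.04, adjusted p = 0.00125), MARS1 (0.78, adjusted p = 0.0034), TARS1 (0.61, adjusted p = 0.00853) and YARS1 (0.59, adjusted p = 0.00869). All 7 are cytosolic, and each was higher in 3 of 3 cell lines. The closest mitochondrial gene was SARS2 (0.49, adjusted p = 0.0175). These values rest on the same arrays as those above. The fit called 0 of the members when no filter on dim probes was applied and 3 without Oci-Ly-2.

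Promoters of the members were searched for the core of the C/EBP-ATF response element, written as TGATGNAAN and sought on both strands in the 250 bases before and the first 50 after each start site in RefSeq (GRCh38.p14). Of the 34 genes, 29 had an entry. The core was found in 6 of 15 cytosolic genes and 1 of 14 mitochondrial genes, against 4.45% of 27305 genes with promoters of the same length. A match is a description of the letters and not evidence of binding. The stretches below are shown because they hold the matches of cytosolic members that were called at 12 h (AARS1, GARS1, MARS1), that were called with the cell line as the replicate (TARS1) or that had positive values in all 3 cell lines (IARS1, NARS1), and of the 1 mitochondrial member, YARS2. Capitals mark the core, or its reverse complement where the match is on the other strand, and each is read 5′ to 3′ on the strand of the gene.
AARS1, chr16:70289646-70289734, minus strand: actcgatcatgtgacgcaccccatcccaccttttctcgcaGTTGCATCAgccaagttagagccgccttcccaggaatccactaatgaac
GARS1, chr7:30594804-30594892, plus strand: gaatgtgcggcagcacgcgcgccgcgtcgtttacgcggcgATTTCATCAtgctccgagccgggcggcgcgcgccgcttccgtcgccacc
MARS1, chr12:57488023-57488097, plus strand: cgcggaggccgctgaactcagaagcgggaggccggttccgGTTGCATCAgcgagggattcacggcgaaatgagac
TARS1, chr5:33440926-33440994, plus strand: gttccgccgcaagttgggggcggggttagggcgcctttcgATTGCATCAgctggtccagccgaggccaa
IARS1, chr9:92293668-92293751, minus strand: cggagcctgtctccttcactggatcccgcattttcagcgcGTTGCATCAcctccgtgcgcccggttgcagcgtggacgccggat
NARS1, chr18:57621807-57621862, minus strand: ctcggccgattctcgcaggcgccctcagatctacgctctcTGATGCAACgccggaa
YARS2, chr12:32756046-32756134, minus strand: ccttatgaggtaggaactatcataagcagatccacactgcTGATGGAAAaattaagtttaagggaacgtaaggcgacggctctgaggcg

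In AARS1, IARS1, MARS1 and NARS1 the match had the same letters, TGATGCAAC on one strand or the other, while TARS1 had TGATGCAAT and GARS1 TGATGAAAT. Counted from the start site as 1, with no position 0, the match of MARS1 ran from −5 to 4, that of TARS1 from 2 to 10, that of IARS1 from −14 to −6 and that of NARS1 from 15 to 23. The match of GARS1, at the second of its starts in RefSeq, lay from −34 to −26, and those of AARS1 (−188 to −180) and YARS2 (−197 to −189) were farther from the start. TARS1 has a further start in RefSeq, and its match was counted from the start 269 bases inside the outer bound of the gene. WARS1, the gene with the largest change, and SARS1 had no match in this window. LARS1, VARS1, YARS1, AARS2 and VARS2 were not in the promoter table. The related CRE-like letters TGACGTNA, sought in the same way on both strands, were found in 0 of 15 cytosolic genes, in 1 of 14 mitochondrial genes (NARS2, which had no match to the core) and in 3.63% of all genes.

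**Figure D3:**
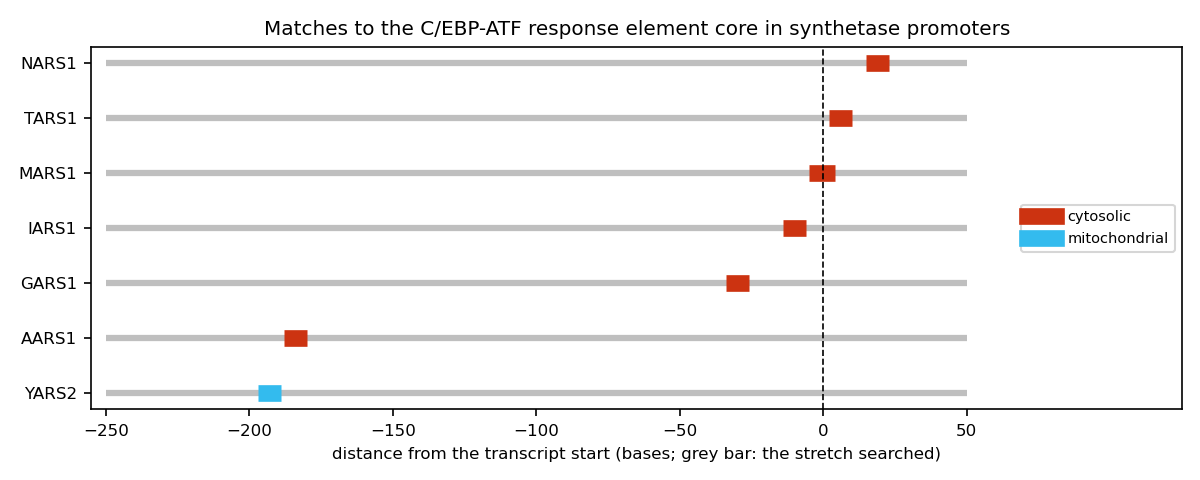
Position of each match to the C/EBP-ATF response element core (coloured blocks) in the promoters of 7 synthetase genes, with the distance from the transcript start in bases on the horizontal axis and the stretch searched in grey. Of the 6 cytosolic matches, 5 lie between −34 and 23, and that of AARS1 lies at −188, each counted from the start whose stretch held the match.

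Mitochondrial synthetases serve translation of the few proteins encoded in mitochondrial DNA. At 12 h their values ran from −0.33 (YARS2) to 0.43 (SARS2) in BL-41. The lowest and highest were −0.34 (LARS2) and 0.55 (SARS2) for SU-DHL-4, and −0.57 (LARS2) and 0.50 (SARS2) for Oci-Ly-2. SARS2, the mitochondrial seryl-tRNA synthetase, had log2 signals of 8.50 and 8.63 with artesunate and 8.23 and 8.03 in the controls of BL-41. In SU-DHL-4 they were 8.31 and 8.60 with artesunate and 7.88 and 7.94 in the controls, and in Oci-Ly-2 8.98 and 9.19 with artesunate and 8.61 and 8.57 in the controls. All artesunate arrays lay above the controls, with log2 fold changes of 0.43, 0.55 and 0.50 (SE 0.13; adjusted p = 0.0959, 0.0307 and 0.0298 from limma), which missed the threshold. It was the member of its class with the largest positive mean.

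LARS2, the mitochondrial leucyl-tRNA synthetase, had log2 signals of 6.98 and 6.90 with artesunate and 7.35 and 7.68 in the controls of Oci-Ly-2 (−0.57, SE 0.14, adjusted p = 0.0129 from limma). In SU-DHL-4 they were 6.94 and 6.91 with artesunate and 7.27 and 7.26 in the controls (−0.34), and in BL-41 6.85 and 6.70 with artesunate and 6.83 and 6.85 in the controls (−0.07). The groups overlapped in BL-41 and in neither of the other cell lines. LARS2 in Oci-Ly-2 passed the threshold under 5 alternative settings (adjusted p = 0.00275 to 0.0129, the last at a threshold of 0.05).

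MARS2, the mitochondrial methionyl-tRNA synthetase, had log2 signals of 7.38 and 7.57 with artesunate and 7.88 and 7.65 in the controls of BL-41, 7.44 and 7.29 with artesunate and 7.74 and 7.67 in the controls of SU-DHL-4, and 7.49 and 7.63 with artesunate and 7.90 and 8.04 in the controls of Oci-Ly-2. These give −0.29, −0.34 and −0.41, with no overlap and no call (adjusted p = 0.405, 0.274 and 0.121). A dimmer MARS2 probe, detected on 14 of the 24 arrays, had −0.13, 0.01 and −0.28. EARS2, the mitochondrial glutamyl-tRNA synthetase, had 7.06 and 7.07 with artesunate and 7.35 and 7.23 in the controls of BL-41, 6.80 and 6.63 with artesunate and 6.59 and 6.62 in the controls of SU-DHL-4, and means of 6.64 with artesunate and 7.11 in the controls of Oci-Ly-2 (−0.23, 0.11 and −0.46). It was thus lower with artesunate in the BL-41 and Oci-Ly-2 arrays and higher in those of SU-DHL-4, with no call. YARS2, the mitochondrial tyrosyl-tRNA synthetase, had 8.53 and 8.60 with artesunate and 8.92 and 8.86 in the controls of BL-41, 9.21 and 9.50 with artesunate and 9.47 and 9.59 in the controls of SU-DHL-4, and 9.02 and 9.06 with artesunate and 9.27 and 9.38 in the controls of Oci-Ly-2 (−0.33, −0.18 and −0.29), which overlapped in SU-DHL-4 and was not called.

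Symbols that differ only in the suffix, and EPRS1 with EARS2, gave 13 pairs of cytosolic and mitochondrial genes for the same amino acid. Pairs for phenylalanine and proline were not counted. FARSA had −0.03, −0.32 and −0.13 and FARSB 0.17, −0.10 and −0.14, where FARS2 had 0.11, 0.05 and 0.16. EPRS1 had 0.46, 0.50 and 0.56 and PARS2 0.19, −0.12 and −0.09. In 10 pairs, the tryptophan pair included, the log2 fold change of the cytosolic gene was the higher one in all 3 cell lines. The cytosolic value exceeded the mitochondrial one in the alanine pair by 1.17, 0.96 and 1.14, in the tyrosine pair by 0.95, 0.76 and 0.85 and in the leucine pair by 0.47, 0.79 and 1.17. In 2 pairs the cytosolic gene was the lower one in all 3: HARS1 had −0.10, −0.21 and −0.11 and HARS2 0.04, 0.03 and 0.09, and RARS1 had −0.17, −0.32 and 0.01 and RARS2 0.04, 0.10 and 0.02. The valine pair was mixed. These differences between probes were not tested. WARS2, the mitochondrial tryptophan enzyme, was detected only in BL-41, so the tryptophan pair has a measured change on both sides in that cell line alone (1.61 for WARS1 and 0.07 for WARS2).

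At 4 h, 0 of the 34 genes were called in each cell line, where limma called 0%, 0.0232% and 0% of all genes. Of the cytosolic genes 2, 1 and 3 had an unadjusted p under 0.05, and of the mitochondrial genes 3, 1 and 1, as did 7.69%, 9.46% and 6.39% of all genes. The cytosolic ones were lower in 2, 1 and 2 cases and higher in 0, 0 and 1. Those of the mitochondrial class were lower in 0, 1 and 0 cases and higher in 3, 0 and 1. The cytosolic medians were 0.03, 0.08 and 0.02 and the mitochondrial medians 0.12, 0.01 and 0.00, against 0.034, 0.044 and 0.016 over all genes. At 4 h WARS1 had log2 signals of 8.83 and 8.94 with artesunate and 8.66 and 8.84 in the 0 h controls of BL-41. SU-DHL-4 had 8.51 and 8.25 with artesunate and 7.97 and 8.27 in the controls, and Oci-Ly-2 had 9.10 and 9.16 with artesunate and 8.62 and 8.73 in the controls. The groups overlapped in all but Oci-Ly-2, and the log2 fold changes were 0.13, 0.26 and 0.46 (adjusted p = 0.925, 0.672 and 0.528 from limma). AARS1 had −0.06, 0.18 and −0.20. The lowest value was that of FARS2, the mitochondrial phenylalanyl-tRNA synthetase, in SU-DHL-4 (−0.46, adjusted p = 0.127). Between the 12 h and the 0 h controls, 0 of the 34 genes and 0% of all genes were called in each cell line, and 1 cytosolic gene in Oci-Ly-2 and 1 mitochondrial gene in SU-DHL-4 had an unadjusted p under 0.05 (6.10%, 9.34% and 4.40% of all genes did).

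The difference between the 12 h change and the 4 h change was tested as an interaction. WARS1 passed in all 3 cell lines (1.47, 1.64 and 1.79, SE 0.26; adjusted p = 0.00706, 0.00685 and 0.00132 from limma). AARS1 passed in BL-41 (1.31, SE 0.22, adjusted p = 0.00384) and Oci-Ly-2 (1.39, SE 0.22, adjusted p = 0.0024) and not in SU-DHL-4 (0.90, adjusted p = 0.0927). At 4 h AARS1 had log2 signals of 10.85 and 11.21 with artesunate and 10.93 and 11.26 in the 0 h controls of BL-41, and 10.84 and 10.98 with artesunate and 11.12 and 11.11 in the 0 h controls of Oci-Ly-2. These overlapped in BL-41, whereas the artesunate arrays were the lower ones in Oci-Ly-2. These 2, 1 and 2 members that rose stand against 0.341%, 0.116% and 0.333% of all genes. In BL-41 the count went to 0 without 4 h artesunate replicate 1, 12 h control replicate 1, either 12 h artesunate replicate or 0 h control replicate 3, and to 1 without any other array. In Oci-Ly-2 it went to 1 without either 0 h control replicate, 4 h artesunate replicate 1, 12 h control replicate 1 or 12 h artesunate replicate 3. By limma 0 mitochondrial genes were called in this comparison (2, 4 and 3 at an unadjusted p under 0.05, against 10.8%, 11.0% and 14.8% of all genes).

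**Figure D4:**
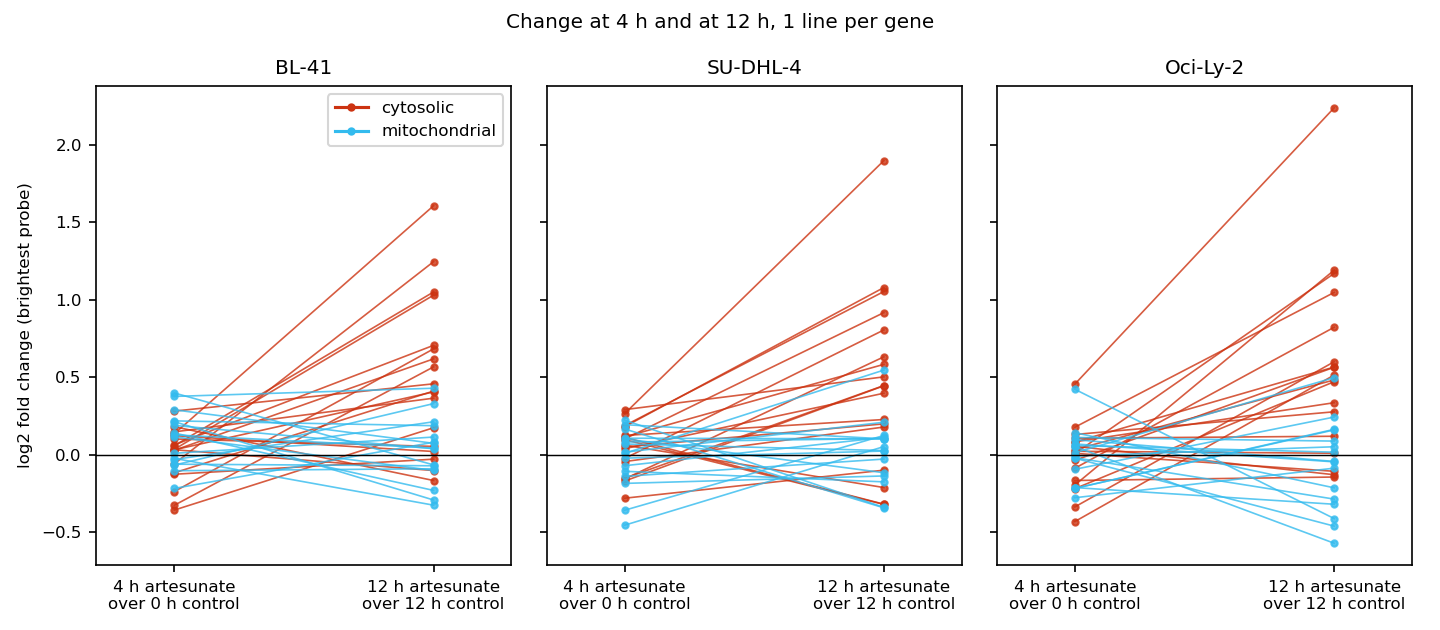
Log2 fold change of each synthetase gene (lines, brightest probe) at 4 h, over the 0 h control, and at 12 h, over the 12 h control, with 1 panel per cell line; red, cytosolic; blue, mitochondrial. At 4 h the genes of both classes lie between −0.46 and 0.46, and at 12 h cytosolic genes reach 1.61, 1.90 and 2.24.

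No synthetase had a 12 h change that differed between cell lines by limma (0 of 34 called in each of the 3 pairs, against 0.108%, 0.194% and 0.0155% of all genes). For WARS1 the change in BL-41 minus that in Oci-Ly-2 was −0.63 (95% interval −1.18 to −0.09, adjusted p = 0.699). EARS2 had the largest difference among mitochondrial genes, 0.57 in SU-DHL-4 minus Oci-Ly-2 (95% interval 0.11 to 1.04, adjusted p = 0.528), and for LARS2 BL-41 minus Oci-Ly-2 was 0.51 (0.11 to 0.91, adjusted p = 0.626). At this number of arrays the intervals remain wide, so alike responses are not shown.

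Without artesunate, levels of synthetases of both classes differed between the cell lines. On the mean of the 0 h and 12 h controls, 11 of the 34 genes were called in BL-41 against SU-DHL-4, 8 in BL-41 against Oci-Ly-2, and 11 when SU-DHL-4 was set against Oci-Ly-2. The share of all genes called in these comparisons was 26.3%, 26.4% and 26.4%, so the members' counts are close to the background. In SU-DHL-4 against Oci-Ly-2 all 11 were lower in SU-DHL-4, 6 of them cytosolic and 5 mitochondrial. Of all genes, 47.4% had a value above 0 in that comparison, and the share called lower is not given. In BL-41 against SU-DHL-4, AARS1, KARS1, QARS1, TARS1, WARS1, EARS2, HARS2, TARS2 and WARS2 were higher and CARS2 and YARS2 lower in BL-41. In BL-41 against Oci-Ly-2, TARS2 and WARS2 were higher and EPRS1, TARS1, CARS2, FARS2, LARS2 and NARS2 lower in BL-41. WARS2, counted among the 11 and the 8, passed the detection filter through BL-41 alone, so its calls are not independent of that filter.

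CARS2, the mitochondrial cysteinyl-tRNA synthetase, had the largest difference of all members. Its log2 signals (0 h replicates 1 and 3, then 12 h replicates 1 and 3) in BL-41 controls were 5.38, 5.31, 5.23 and 5.50. In SU-DHL-4 controls they were 7.13, 7.44, 7.25 and 7.32, and in Oci-Ly-2 controls 7.97, 7.84, 7.74 and 7.82. The 3 cell lines did not overlap, and CARS2 was lowest in BL-41 and highest in Oci-Ly-2. The difference was −1.93 for BL-41 minus SU-DHL-4 (SE 0.11, adjusted p = 1.32e-11 from limma), −2.49 for BL-41 minus Oci-Ly-2 (adjusted p = 2.43e-13) and −0.55 for SU-DHL-4 minus Oci-Ly-2 (adjusted p = 0.000338). With artesunate at 12 h it had −0.07, −0.14 and −0.32 (adjusted p = 0.918, 0.739 and 0.253) and was not called.

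TARS2, the mitochondrial threonyl-tRNA synthetase, was highest in BL-41. TARS2 signals were 7.56, 7.57, 7.58 and 7.55 on BL-41 control arrays, 5.42, 6.19, 6.16 and 6.29 on those of SU-DHL-4, and 6.54, 6.23, 6.07 and 6.28 on those of Oci-Ly-2. BL-41 stood above both other cell lines (1.55 over SU-DHL-4 and 1.28 over Oci-Ly-2, SE 0.14), which overlapped with each other (−0.27 for SU-DHL-4 minus Oci-Ly-2, adjusted p = 0.165). TARS1, the cytosolic enzyme for the same amino acid, had 8.23, 8.18, 8.57 and 8.30 in BL-41 controls, 7.36, 7.74, 7.23 and 7.60 in SU-DHL-4 controls and 8.93, 9.11, 8.87 and 8.98 in Oci-Ly-2 controls. The order of TARS1 was thus Oci-Ly-2, BL-41 and SU-DHL-4 from high to low, without overlap, and SU-DHL-4 minus Oci-Ly-2 was −1.49 (SE 0.13, adjusted p = 6.7e-09).

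WARS2 was detected on all 8 arrays of BL-41, with control signals of 5.19, 5.53, 5.39 and 5.30, and on none of the other cell lines. It thus passed the detection filter through BL-41 alone, and its higher level there is not independent of that filter. BL-41 controls were at least 1.43-fold higher than those of SU-DHL-4 and at least 1.48-fold higher than those of Oci-Ly-2, with the bound taken against the lowest signal among detected probes of each array. AARS1 had 10.93, 11.26, 11.03 and 11.25 on BL-41 control arrays, 10.03, 10.03, 10.06 and 10.35 on those of SU-DHL-4, and 11.12, 11.11, 10.89 and 11.03 on those of Oci-Ly-2. SU-DHL-4 was the lowest, without overlap, and the other cell lines overlapped. The difference was 1.002 for BL-41 minus SU-DHL-4 (SE 0.11, adjusted p = 3e-07) and −0.92 for SU-DHL-4 minus Oci-Ly-2 (adjusted p = 9.15e-07), while BL-41 and Oci-Ly-2 differed by 0.08 (adjusted p = 0.657).

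**Figure D5:**
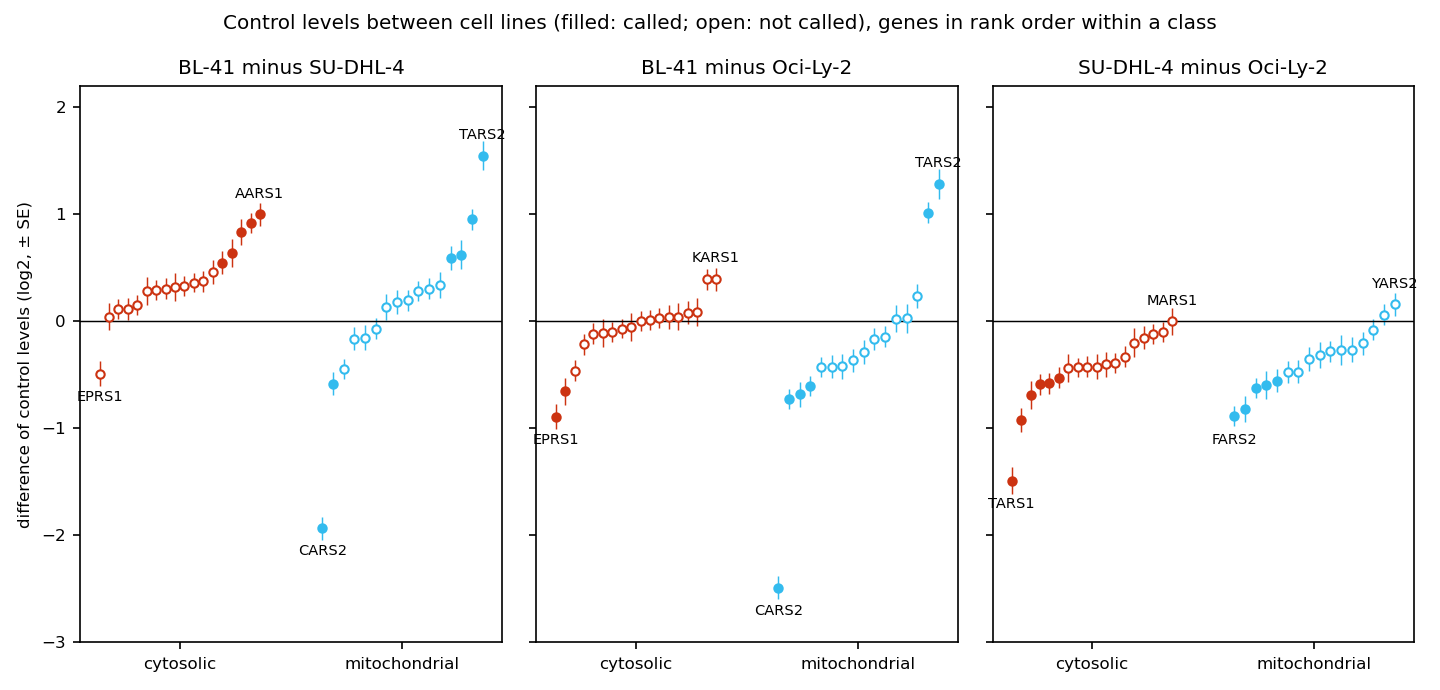
Difference of the mean control level (0 h and 12 h) between cell lines for each synthetase gene (points, brightest probe; bars, ± SE; log2 scale on the vertical axis), in rank order within the cytosolic (red) and mitochondrial (blue) class. CARS2 lies at −1.93 and −2.49 in BL-41 minus SU-DHL-4 and BL-41 minus Oci-Ly-2, and TARS2 at 1.55 and 1.28.

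Proteins that work beside the synthetases showed no call at 12 h. Of 8 measured genes that act with the cytosolic enzymes, such as the translation elongation factors that carry charged tRNA to the ribosome, limma called 0 throughout (unadjusted p under 0.05 for 0, 1 and 1), with medians of 0.08, 0.10 and 0.15. Among the 8 was TARS3, itself a threonyl-tRNA synthetase gene, whose symbol the rule for members did not match (0.08, −0.08 and 0.01). AIMP1, AIMP2, EEF1E1 and EEFSEC, also listed for the cytosolic enzymes, were not among the genes tested. Of 10 measured genes that act in mitochondrial translation, 0 were called (unadjusted p under 0.05 for 1, 2 and 2), with medians of 0.00, 0.10 and −0.10. Of all genes, 1.98%, 1.26% and 4.21% were called in either direction, and 15.5%, 16.7% and 21.9% had an unadjusted p under 0.05. The counts of both lists are thus close to the background. MTIF2, a mitochondrial translation initiation factor, had 0.73, 0.59 and 0.66 (SE 0.18; adjusted p = 0.0256, 0.077 and 0.0268 from limma). GATC, a subunit of the enzyme that finishes the charging of mitochondrial glutaminyl-tRNA, had −0.18, −0.42 and −0.60 (SE 0.17; adjusted p = 0.722, 0.208 and 0.0354).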

How the data were processed

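Per array, the authors deposited non-normalized probe intensities, each with a detection p-value, and a table of processed intensities. These processed values matched quantile-normalized signals without background subtraction to within 0.0329 on the log2 scale. Here the deposited non-normalized intensities were passed through neqc of limma 3.58.1 (R 4.3.3), which estimates the negative controls from detection p-values (offset 16), followed by quantile normalization and log2. A model of 12 group means was fitted to 25017 probes detected (p under 0.05) on 2 or more of 24 arrays (12 residual, 7.418 prior degrees of freedom). Another model took the 6 means at 12 h and used cell line as a block. Thresholds were those in the methods of the study. A gene with several probes was called if any probe was, and its values, class medians and ranges are those of its brightest probe. The number of arrays limits the precision, and median signals per array ran from 82.6 to 112. The model was tested on simulated data.

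Values were given array by array for genes called at 12 h, for the 5 mitochondrial genes with the largest mean absolute 12 h change and for the 5 with the largest called difference between controls. The members, the lists and the promoter motifs were chosen with earlier results of these data known. Partner lists held 12 cytosolic and 13 mitochondrial genes. Alternatives were other filters, normalizations, thresholds and controls, array weights, each cell line alone, a replicate block and leaving out each array. The numbers 1 and 3 were not taken to pair samples.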

Additional observations from a re-analysis of the deposited data

Results flagged for a closer look

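The change of 2 cytosolic synthetases differed between 12 h and 4 h by limma's test of the interaction. WARS1 did so in BL-41 (difference of log2 fold changes 1.47), in SU-DHL-4 (1.64), also in Oci-Ly-2 (1.79); AARS1 did so in BL-41 (1.31) and Oci-Ly-2 (1.39). The 12 h change is relative to the 12 h control and the 4 h change to the 0 h control, and 9, 10 and 11 of the 18 cytosolic genes had an unadjusted p under 0.05 in BL-41, then SU-DHL-4, then Oci-Ly-2, 1 of the 10 in SU-DHL-4 with a negative difference, against 10.8%, 11.0% and 14.8% of all genes.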

How the results depend on the processing

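No called result changed direction under any alternative; among uncalled ones, LARS2 in BL-41 (−0.07) had 0.0099 without artesunate replicate 3. The number of cytosolic genes that rose at 12 h, 5 in BL-41 and 5 in Oci-Ly-2, was 8 in each with no background correction, with the deposited processed values and at an adjusted p under 0.05. In BL-41 it was 8 against the average of the 0 h and 12 h controls and 3 with median scaling. In SU-DHL-4 it was 1, against 4, when each cell line was fitted alone. Without 1 array it was 3 in BL-41, whichever array, 1 to 3 in SU-DHL-4 (1 without artesunate replicate 3, 2 without control replicate 1) and 3 to 5 in Oci-Ly-2 (3 without artesunate replicate 3). GARS1 in SU-DHL-4 lost its call without artesunate replicate 3 (0.94, adjusted p = 0.0118). Median scaling took the calls of SARS1 (0.98) and YARS1 (0.53) in BL-41, SARS1 in SU-DHL-4 (0.91) and MARS1 in Oci-Ly-2 (0.78). The mitochondrial count, 0 throughout, became 1 in SU-DHL-4 at an adjusted p under 0.05 (SARS2). In Oci-Ly-2 it became 1 (LARS2) without a filter on dim probes, under a stricter one, at an adjusted p under 0.05, with array quality weights and against the average of the controls (adjusted p = 0.00275 to 0.0129). Late against early, the counts of 2, 1 and 2 (BL-41, then SU-DHL-4, then Oci-Ly-2) were 4, 2 and 6 with no background correction and with the deposited processed values, 4 in BL-41 at an adjusted p under 0.05 (5 for Oci-Ly-2), 0 in BL-41 with median scaling (1 for Oci-Ly-2), and 1, 0 and 0 with each cell line fitted alone. Without 1 array they were 0 to 1, 1 and 1 to 2. Between controls, the 11 genes of BL-41 minus SU-DHL-4 and 8 of BL-41 minus Oci-Ly-2 were 7 and 5 with no background correction and with the deposited processed values; without 1 array the counts were 10 to 12, 8 to 9 and, for SU-DHL-4 minus Oci-Ly-2, 9 to 14. In the fit across cell lines, 7 genes became 0 with no filter and 3 to 5 without 1 cell line. With a replicate block no count moved by over 1.5 times: MARS1 gained a call at 0.71 in BL-41 (adjusted p = 0.00482) and at 0.81 in SU-DHL-4 (adjusted p = 0.00314), and YARS1 in BL-41 lost it (0.62, adjusted p = 0.0102). Arrays with the same number shared little, with correlations of their deviations of −0.18 to 0.21 in BL-41, 0.06 to 0.28 in SU-DHL-4 and 0.07 to 0.16 in Oci-Ly-2 over 6 pairs of groups each.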

Other observations

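HARS1 and HARS2, the cytosolic and the mitochondrial histidine enzymes, are encoded head to head on opposite strands, with 85 bases between their start sites in RefSeq. Neither was called with artesunate at 12 h in any of the 3 cell lines. Without the drug HARS2 was called higher in BL-41 than in SU-DHL-4 and lower in SU-DHL-4 than in Oci-Ly-2 (differences of 0.62 and −0.59, adjusted p = 0.00107 and 0.00162 from limma), while HARS1 was not called in any of these comparisons.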
